A study of Mus musculus with 8 samples.

Results

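Stra8, Meioc, Ythdc2 and Rbm46 are 4 of the 55421 genes in the deposited count table, and they were taken by gene symbol, with no measured value in the rule, although earlier results of these data were known when they were chosen. Their products act where a germ cell leaves the mitotic programme and enters meiosis. All 4 symbols had a single row, and all 4 passed the filter on low counts. Expression was measured by RNA-seq in 8 libraries from primary cultures of mouse spermatogonia (SSC culture) in a C57BL/6XDBA/2 background, established from pups of 6 days and grown on mouse embryonic fibroblast feeder cells in medium with N2, bFGF and GDNF (10 ng/ml of each growth factor per the labels, whereas the study's list of media gives a higher GDNF concentration). The 4 groups, of 2 libraries each, were STRA8KO or SPO11KO cultures (Stra8KO and Spo11KO here), given for 48 h either vehicle (Veh) or NRRA, which is nutrient restriction combined with retinoic acid. Every culture was therefore a knockout of a meiotic gene, wild-type cultures were not analysed here, and neither nutrient restriction nor retinoic acid was given alone. The mutant mice came from established Stra8- and Spo11-deficient lines, and the study describes its sequencing replicates as biological and independent, but the labels tie no library to an animal or a separate culture, so p-values measure the spread between these libraries.

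STRA8 is induced by retinoic acid and acts as a transcription factor at the start of meiosis, together with its partner MEIOSIN, the product of the gene listed as Gm4969. MEIOC and YTHDC2 work after transcription. YTHDC2 is an RNA helicase with a domain that reads N6-methyladenosine, the commonest internal modification of mRNA, MEIOC is its partner, and the complex also contacts the exonuclease XRN1 and is required to end the mitotic programme, including the mitotic cyclin Ccna2. RBM46 is a germ cell RNA-binding protein that associates with MEIOC and YTHDC2 and is required for meiotic prophase.

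Sequences upstream of the RefSeq start sites are shown because NRRA contains the ligand of the retinoic acid receptors and because the levels of these genes differed between Stra8KO and Spo11KO cultures. RefSeq entries (GRCm38.p6) were matched for 3 of the 4 genes, and the 250 bases before each start were searched on both strands. The half-sites of retinoic acid receptors searched were AGGTCA, next GGGTCA, and last AGTTCA. The other letters were CNCCTCAG, a STRA8-associated motif, then CACGTG, an E-box, and TTCCCGC, an E2F site. Capitals mark a match. The Stra8 window held 2 copies of AGGTCA, at 194 to 189 and at 38 to 33 bases before the start, each shown with 10 bases on either side, on the plus strand at chr6:34920744-34920769 and chr6:34920900-34920925. Longer stretches are not shown because the window lies in an exon of another annotated Stra8 transcript.
Stra8, distal copy: tggggtgaaaAGGTCAtcttgctcct
Stra8, proximal copy: ctggggtaccAGGTCAgttttttacc
The RefSeq start of Meioc lies 1869 bases downstream of the GENCODE start of the gene, and another transcript therefore begins further upstream. The Meioc window (chr11:102665335-102665584, plus strand) lies inside the annotated gene and outside its exons. It held none of the receptor half-sites and had an E2F site on the reverse strand, at 228 to 222 bases before the start.
Meioc: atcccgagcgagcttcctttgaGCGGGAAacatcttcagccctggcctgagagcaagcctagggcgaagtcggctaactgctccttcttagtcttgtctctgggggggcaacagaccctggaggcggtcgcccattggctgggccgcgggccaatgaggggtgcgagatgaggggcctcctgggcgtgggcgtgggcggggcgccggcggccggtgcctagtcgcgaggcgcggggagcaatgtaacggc
The Rbm46 window (chr3:82876484-82876733, minus strand) had AGTTCA at 247 to 242, CACGTG at 34 to 29 and the STRA8-associated motif, on the reverse strand, at 16 to 9 bases before the start. No match overlapped another.
Rbm46: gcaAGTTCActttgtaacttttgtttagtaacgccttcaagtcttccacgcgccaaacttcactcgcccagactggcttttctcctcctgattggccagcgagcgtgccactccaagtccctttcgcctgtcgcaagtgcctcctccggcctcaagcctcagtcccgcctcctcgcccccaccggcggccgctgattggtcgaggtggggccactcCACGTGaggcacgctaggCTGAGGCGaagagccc

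Such letters are common. Of 32851 windows of the same length upstream of RefSeq starts, AGGTCA was in 14.0% and at least 2 copies of it in 1.36%. GGGTCA was in 11.6%, AGTTCA in 11.8%, CNCCTCAG in 6.42%, CACGTG in 6.02% and TTCCCGC in 3.82%. Each match is a description of these windows, and binding was not measured.

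Library totals ranged from 20960794 to 27038868 counts, and 20588 genes were tested. Levels are given as CPM, the counts of a gene per 1e+06 counts of the library after TMM scaling, or as RPKM, which is CPM per 1000 bases of exon and allows levels of different genes to be compared. The cultures were checked for their cell types. All 11 germ cell markers were counted in every library, and together they held 0.0591% to 0.0751% of the counts in Stra8KO and 0.123% to 0.167% in Spo11KO. The 17 fibroblast markers held 2.63% to 4.62% in Stra8KO and 1.51% to 2.77% in Spo11KO. In bulk cultures such as these, fewer germ cells and less RNA per germ cell cannot be told apart. The 8 Sertoli cell markers held at most 0.00489% and the 8 macrophage markers at most 0.00598%. Within the Sertoli cell list, counts per library went from 1 to 8 of Amh up to 256 to 905 of Sox9. Within the macrophage list they went from 0 to 11 of C1qb up to 210 to 705 of Lyz2. The targeted gene Stra8 was lower in Stra8KO, as given next. Spo11 was not lower in Spo11KO, with 72 and 75 counts in Veh and 148 and 127 in NRRA, against 32 and 31 and then 68 and 66 in Stra8KO. Gene counts do not show which exon was deleted, so the Spo11 reads do not check the Spo11KO label.

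Stra8 (ENSMUSG00000029848, protein coding, GRCm38 chromosome 6, 34920163 to 34939344, plus strand) was near the floor in vehicle and rose with NRRA in both genotypes, to a far higher level in Spo11KO. The Stra8KO Veh libraries had 2 and 0 counts, the Stra8KO NRRA libraries 169 and 170, the Spo11KO Veh libraries 28 and 12, and the Spo11KO NRRA libraries 12604 and 16191. The order of the groups was therefore Stra8KO Veh, Spo11KO Veh, Stra8KO NRRA and Spo11KO NRRA, with no overlap between neighbouring groups. Levels were 0.0447 ± 0.0632, 0.850 ± 0.464, 7.99 ± 0.219 and 519 ± 46.7 CPM in that order (mean ± SD, n = 2). On the RPKM scale the Spo11KO NRRA mean was 288 ± 25.9 and the Stra8KO NRRA mean 4.43 ± 0.122.

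NRRA raised Stra8 609-fold over vehicle in Spo11KO, with an exact 95% interval of 447 to 853 for the ratio of summed counts. The vehicle libraries differed (28 and 12 counts), and the log2 fold change of 9.24 became 9.95 without Spo11KO Veh replicate 1 and 8.77 without replicate 2. The ratio in Stra8KO was 169, with an interval of 46.4 to 1400, because it rests on 2 counts in vehicle. These intervals cover counting error only. The log2 fold changes were 9.24 ± 0.123 (SE) in Spo11KO and 7.25 ± 0.446 in Stra8KO, with adjusted p of 4.85e-23 and 2.02e-11 (edgeR quasi-likelihood test, Benjamini-Hochberg adjustment over all tested genes). Among the 20588 tested genes, Stra8 had the highest log2 fold change in Spo11KO (rank 1) and the fifth highest in Stra8KO (rank 5). The fitted value in Stra8KO depends on how a near-empty group is handled, and it became 10.55 without Stra8KO Veh replicate 1, the only library of its group with Stra8 reads, and 6.40 without Stra8KO Veh replicate 2.

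After NRRA, Stra8 was 98.5% lower in Stra8KO than in Spo11KO cultures. The ratio of Spo11KO NRRA to Stra8KO NRRA was 65.2, with an exact 95% interval of 58.6 to 72.8, and the log2 difference was −6.02 ± 0.0899 (edgeR adjusted p = 2.66e-22). In vehicle the ratio was 18.1, with an interval of 4.69 to 154 (log2 difference −4.03 ± 0.826, adjusted p = 0.000259). The log2 difference in vehicle became −7.34 without Stra8KO Veh replicate 1, −3.19 without Stra8KO Veh replicate 2 and −3.32 without Spo11KO Veh replicate 1. The counts do not show whether the reads in Stra8KO come from a transcript that can be translated. The difference of the 2 NRRA effects could not be resolved, at −1.99 ± 1.71 on the log2 scale with a 95% interval of −5.57 to 1.59 (edgeR adjusted p = 0.462).

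**Figure D1:**
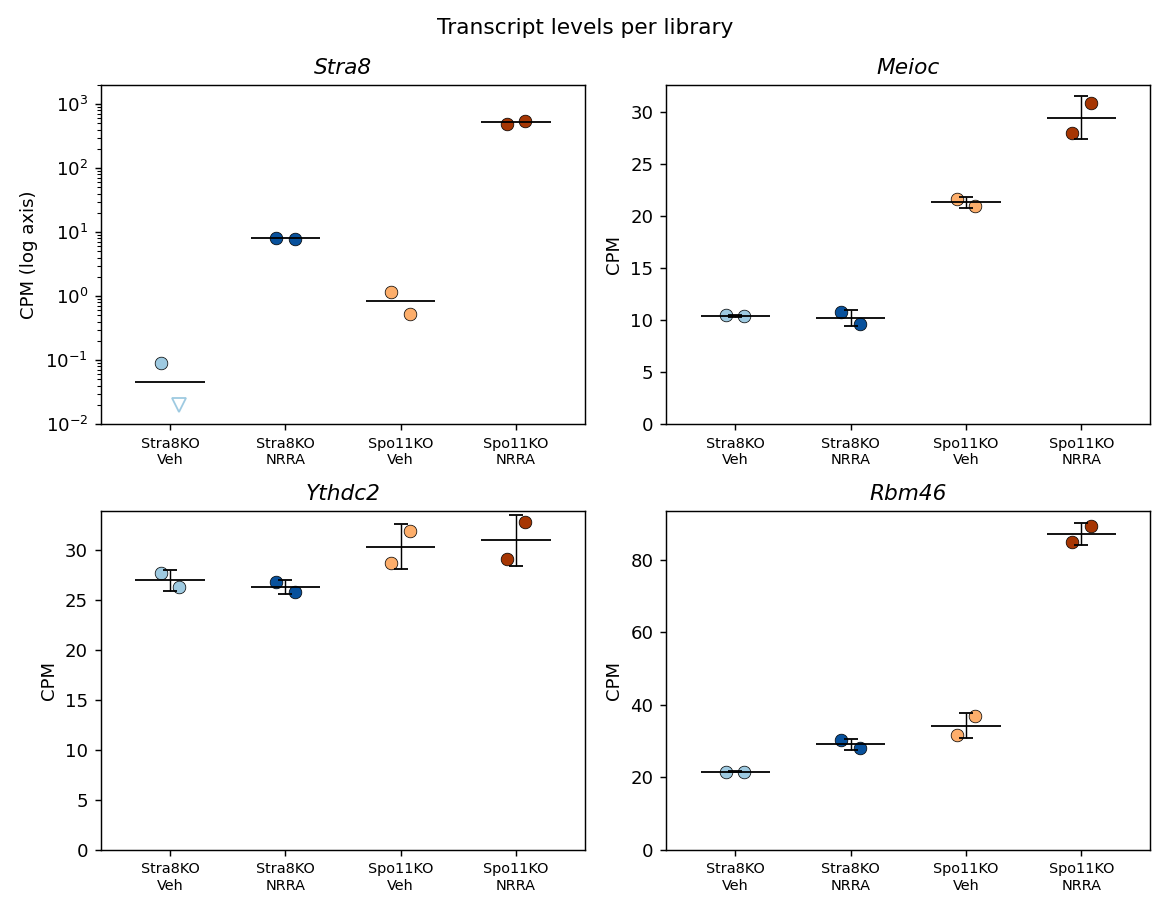
CPM of Stra8 (log axis), Meioc, Ythdc2 and Rbm46 (linear axes from 0) in the 8 libraries, with the group mean as a bar and, on the linear axes, the SD over 2 libraries. The open triangle is the Stra8KO Veh library with 0 Stra8 counts, which a log axis cannot show. Stra8, Meioc and Rbm46 were highest in Spo11KO NRRA, and the Ythdc2 groups lay between 26.3 and 31.0 CPM on average.

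Meioc (ENSMUSG00000051455, chromosome 11, 102663716 to 102682237, plus strand) responded to NRRA in Spo11KO and showed no detectable response in Stra8KO. Counts were 235 and 206 (Stra8KO Veh), 223 and 209 (Stra8KO NRRA), 516 and 483 (Spo11KO Veh) and 727 and 908 (Spo11KO NRRA). In CPM the libraries read 10.5 and 10.4, 10.8 and 9.64, 21.7 and 21.0, and 28.0 and 30.9. The Stra8KO groups overlapped, and both lay below the Spo11KO Veh group, which lay below Spo11KO NRRA. Group means were 10.4 ± 0.0976, 10.2 ± 0.788, 21.3 ± 0.504 and 29.5 ± 2.07 CPM (SD, n = 2).

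NRRA raised Meioc by 0.47 ± 0.0779 on the log2 scale in Spo11KO, a rise of 38.3% (edgeR adjusted p = 2.47e-06). In Stra8KO the log2 change was −0.035 ± 0.115, with a 95% interval of −0.268 to 0.198 (adjusted p = 0.842). The NRRA effect was lower in Stra8KO than in Spo11KO by a log2 difference of −0.50 ± 0.139 (interval −0.785 to −0.221, adjusted p = 0.00562). Without Stra8KO NRRA replicate 2 that difference missed the threshold, at an adjusted p of 0.0549. Between genotypes, Meioc was lower in Stra8KO by 51.1% in vehicle and by 65.5% after NRRA, with log2 differences of −1.03 ± 0.0983 and −1.54 ± 0.0917 (adjusted p = 3.86e-12 and 2.91e-18).

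Ythdc2 (ENSMUSG00000034653, chromosome 18, 44827746 to 44889724, plus strand) had the most even CPM of the 4 genes. This did not hold relative to the germ cell markers, as given below. Counts were 621 and 522 (Stra8KO Veh), 555 and 559 (Stra8KO NRRA), 683 and 734 (Spo11KO Veh) and 756 and 962 (Spo11KO NRRA). The libraries read 27.7 and 26.3, 26.8 and 25.8, 28.7 and 31.9, and 29.1 and 32.8 CPM in the same order. All Stra8KO libraries were below all Spo11KO libraries, and within each genotype the Veh and NRRA libraries overlapped. Group means were 27.0 ± 1.05, 26.3 ± 0.697, 30.3 ± 2.24 and 31.0 ± 2.58 CPM (SD, n = 2).

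No NRRA effect on Ythdc2 passed the test. The log2 changes were −0.042 ± 0.0806 in Stra8KO (95% interval −0.205 to 0.121, edgeR adjusted p = 0.719) and 0.034 ± 0.073 in Spo11KO (interval −0.114 to 0.182, adjusted p = 0.733). Their difference was −0.076 ± 0.109, with an interval of −0.296 to 0.144 (adjusted p = 0.688). After NRRA, Ythdc2 was 15.4% lower in Stra8KO than in Spo11KO (log2 difference −0.24 ± 0.076, adjusted p = 0.00558), and this call was lost without Stra8KO NRRA replicate 2 (adjusted p = 0.0551) and without Spo11KO NRRA replicate 2 (adjusted p = 0.174). In vehicle the log2 difference of −0.16 ± 0.0777 did not pass (interval −0.322 to −0.00781, adjusted p = 0.063), and it did pass without Spo11KO Veh replicate 1, at −0.24 (adjusted p = 0.0211).

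Rbm46 (ENSMUSG00000033882, chromosome 3, 82837228 to 82876483, minus strand) rose with NRRA in both genotypes. Counts were 483 and 426 (Stra8KO Veh), 626 and 607 (Stra8KO NRRA), 755 and 846 (Spo11KO Veh) and 2203 and 2618 (Spo11KO NRRA). The libraries read 21.6 and 21.4, 30.2 and 28.0, 31.8 and 36.8, and 84.9 and 89.2 CPM. The 4 groups did not overlap and stood in that order, although Stra8KO NRRA and Spo11KO Veh were neighbours whose difference was not tested. Group means were 21.5 ± 0.107, 29.1 ± 1.55, 34.3 ± 3.54 and 87.1 ± 3.05 CPM (SD, n = 2).

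In Spo11KO, NRRA raised Rbm46 by 1.35 ± 0.0624 on the log2 scale, a 2.54-fold rise (edgeR adjusted p = 1.2e-21). In Stra8KO the rise was 0.43 ± 0.0801 or 35.2% (adjusted p = 1.82e-05). The effect in Stra8KO was smaller by a log2 difference of −0.91 ± 0.102, with a 95% interval of −1.12 to −0.705 (adjusted p = 2.31e-09). Rbm46 was 37.2% lower in Stra8KO than in Spo11KO in vehicle and 66.6% lower after NRRA, with log2 differences of −0.67 ± 0.077 and −1.58 ± 0.0649 (adjusted p = 5.3e-10 and 1.75e-23).

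**Figure D2:**
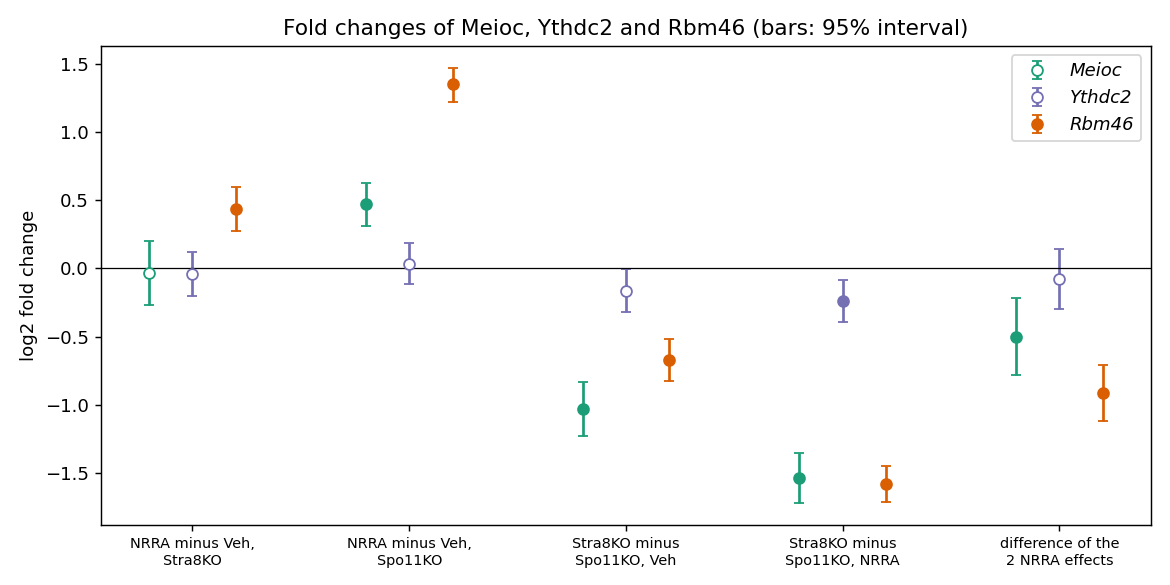
Log2 fold changes of Meioc, Ythdc2 and Rbm46 in the 5 comparisons, with 95% intervals, where filled points passed an adjusted p under 0.05. Stra8 is left out because its changes of 7.25 and 9.24 would hide the others. Rbm46 passed in all 5 comparisons, Meioc in 4 and Ythdc2 in 1.

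Counts of called genes are read against the whole table, in which many genes changed. For NRRA against Veh, 2 of the 4 genes were called in Stra8KO (Stra8 and Rbm46), where 41.5% of all tested genes were called, and 3 of 4 in Spo11KO, where 50.3% were. Between genotypes, 3 of 4 were called in vehicle, where 62.1% of all tested genes were called and 30.7% were lower in Stra8KO. After NRRA 4 of 4 were called, where 64.3% of all were called and 29.1% were lower in Stra8KO. All these calls of the 4 genes were lower in Stra8KO. Stra8 is the gene targeted in Stra8KO, so its calls and rank between genotypes are not read as a result. Apart from it, the calls were Meioc and Rbm46 in vehicle and Meioc, Ythdc2 and Rbm46 after NRRA. The difference of the NRRA effects was called for 2 of 4, Meioc and Rbm46, and for 24.7% of all tested genes. By size, the log2 fold change of Rbm46 under NRRA in Spo11KO ranked 974 from the highest among 20588 genes. In the genotype comparison after NRRA, the log2 differences of Stra8, Rbm46 and Meioc ranked 5, 506 and 556 from the lowest.

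Per length of exon, Rbm46 was more abundant than Meioc and Ythdc2 in every library, and the order of the last pair depended on the genotype. The RPKM ratio of Meioc to Ythdc2 was 0.728 and 0.759 in Stra8KO Veh and 0.773 and 0.719 in Stra8KO NRRA, so the partner was below the helicase. In the Spo11KO libraries it was 1.45 and 1.27 with vehicle, and higher after NRRA at 1.85 and 1.82. The ratio of Rbm46 to Ythdc2 was 2.76 and 2.90, 4.01 and 3.86, 3.93 and 4.10, and 10.4 and 9.67 over the groups in the same order. Ratios within a library do not depend on how libraries are scaled. They can depend on the mix of germ and feeder cells, because Ythdc2 is also expressed outside the germ line. Whether that mix had a part in these ratios was not tested. The Stra8KO NRRA and Spo11KO Veh libraries overlapped for Rbm46 to Ythdc2, and the Spo11KO NRRA libraries stood above all others. The RPKM of Stra8 was below that of Ythdc2 in all 4 Veh libraries, with ratios of 0 to 0.202, and above it in all 4 NRRA libraries, at 1.50 in both Stra8KO libraries and 82.1 and 82.9 in Spo11KO.

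Germ cell marker levels moved with genotype and treatment, so the levels were also read relative to them. Of the 11 germ cell markers, 11 were lower in Stra8KO in vehicle (median log2 difference −0.98) and 11 after NRRA (median −0.92), while all 17 fibroblast markers were higher (medians 0.94 and 0.97). Among all tested genes, 30.7% were lower and 31.5% higher in Stra8KO in vehicle, and 29.1% lower and 35.2% higher after NRRA. Under NRRA, 7 of the 11 germ cell markers rose in each genotype, with 0 lower in Stra8KO and 2 in Spo11KO (medians 0.24 and 0.16). Of the 17 fibroblast markers, 13 rose and 4 fell in each (medians 0.72 and 0.76). S100a4, the fibroblast marker used by the study, was among those that fell, with changes of −2.17 in Stra8KO and −1.66 in Spo11KO. Among all tested genes, 21.4% rose and 20.1% fell in Stra8KO, and 24.7% rose and 25.5% fell in Spo11KO. The germ cell markers did not move alike under NRRA. In Stra8KO and Spo11KO, Piwil2 rose by 0.67 and 0.63 and Ddx4 by 0.13 and 0.16, while Tex19.1 changed by 0.41 and −0.13. Over all tested genes the medians were 0.00172 and 0.0662 between genotypes, in vehicle and after NRRA, and 0.0135 and 0.0129 under NRRA, in Stra8KO and Spo11KO. Whether cell composition had a part in the levels of the 4 genes was not tested beyond the values below.

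Per 1000 summed counts of the germ cell markers, Meioc read 16.7 and 16.6 (Stra8KO Veh), 13.5 and 12.6 (Stra8KO NRRA), 18.0 and 17.3 (Spo11KO Veh) and 18.4 and 20.2 (Spo11KO NRRA). With libraries scaled by these markers, the median of all tested genes moved by 0.946 and 0.967 on the log2 scale in the genotype comparisons and by −0.317 and −0.337 under NRRA. The Meioc difference between genotypes in vehicle was then −0.085 (edgeR adjusted p = 0.451), whereas it was −0.57 after NRRA (adjusted p = 7.82e-07) and the NRRA effects still differed by −0.48 (adjusted p = 0.00909). On this scale Meioc fell with NRRA in Stra8KO by 0.35 (adjusted p = 0.00907), and its change in Spo11KO, 0.13, no longer passed (adjusted p = 0.156). The fall in Stra8KO was near the shift of −0.317 in the median of all tested genes.

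Relative to the germ cell markers, Ythdc2 was higher in Stra8KO than in Spo11KO, the opposite of its CPM. The values were 44.2 and 42.1 (Stra8KO Veh), 33.6 and 33.8 (Stra8KO NRRA), 23.9 and 26.4 (Spo11KO Veh) and 19.2 and 21.4 (Spo11KO NRRA). The log2 differences between genotypes were 0.78 in vehicle and 0.73 after NRRA (edgeR adjusted p = 1.98e-12 and 9.12e-12), and NRRA lowered the value by 0.36 in Stra8KO and by 0.30 in Spo11KO (adjusted p = 0.00018 and 0.000386). Under this scaling the median of all tested genes moved by 0.946 and 0.967 between genotypes and by −0.317 and −0.337 under NRRA. Ythdc2 is also expressed outside the germ line, and the share of its reads that came from feeder cells was not measured.

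Rbm46 read 34.4 in both Stra8KO Veh libraries, then 37.9 and 36.6 (Stra8KO NRRA), 26.4 and 30.4 (Spo11KO Veh) and 55.8 and 58.3 (Spo11KO NRRA), on the same scale. The Spo11KO NRRA libraries stood above the other 6. The rise with NRRA in Spo11KO was 1.01 (edgeR adjusted p = 7.98e-19), and that in Stra8KO, 0.12, did not pass (adjusted p = 0.225). The genotype difference in vehicle changed sign, to 0.28 (adjusted p = 0.00166), while after NRRA it was −0.61 (adjusted p = 1.47e-11). The difference of the NRRA effects was −0.89 (adjusted p = 2.23e-09).

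**Figure D3:**
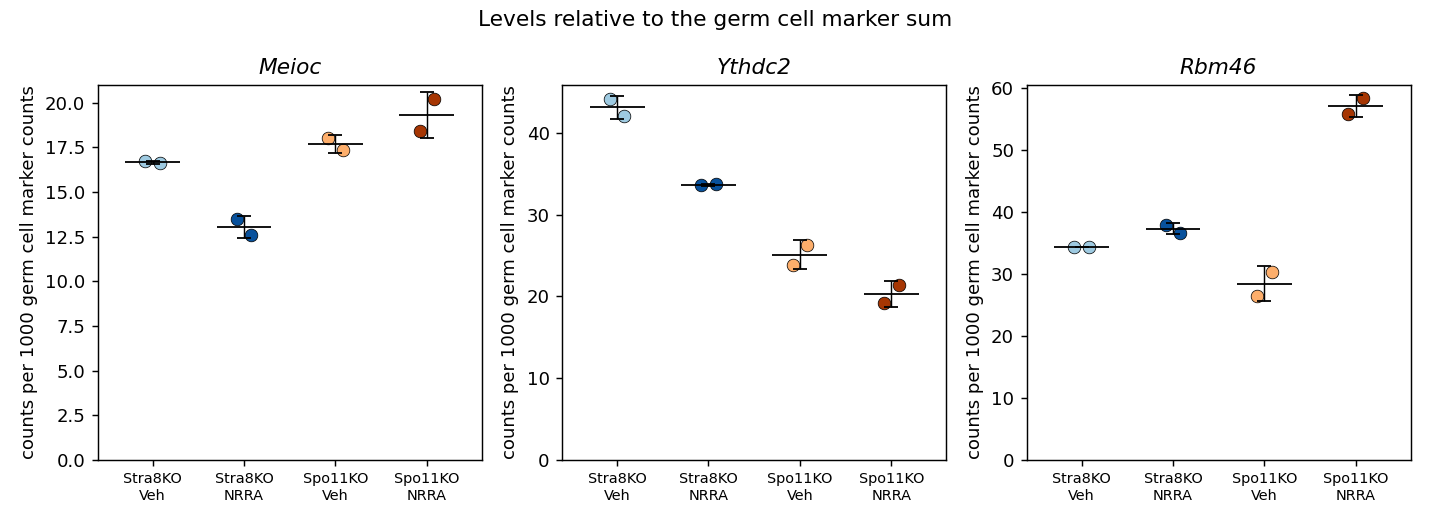
Counts of Meioc, Ythdc2 and Rbm46 per 1000 summed counts of 11 germ cell markers in each library, with group mean and SD over 2 libraries, on linear axes from 0. Rbm46 stood at 55.8 and 58.3 in Spo11KO NRRA against at most 37.9 elsewhere, and Ythdc2 was higher in all Stra8KO libraries than in any Spo11KO library.

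The named partners of these factors, and the cyclin Ccna2, were examined next. Gm4969, which encodes MEIOSIN, had counts of 13 and 18 (Stra8KO Veh), 78 and 91 (Stra8KO NRRA), 39 and 32 (Spo11KO Veh) and 200 and 229 (Spo11KO NRRA), with higher values after NRRA in both genotypes. It rose with NRRA by 2.43 ± 0.279 in Stra8KO (log2) and by 2.35 ± 0.187 in Spo11KO (edgeR adjusted p = 1.15e-09 and 4.42e-14), and the difference of 0.082 ± 0.372 between these effects did not pass (adjusted p = 0.91). The RPKM ratio of Stra8 to Gm4969 was 164 and 184 in Spo11KO NRRA and 5.64 and 4.87 in Stra8KO NRRA. Xrn1, the exonuclease, rose in Spo11KO by 0.32 ± 0.0506 (adjusted p = 1.22e-06) and changed by −0.0096 ± 0.054 in Stra8KO (adjusted p = 0.909), and these effects differed by −0.33 (adjusted p = 0.000758). Scaled by the germ cell markers, the change of Xrn1 was −0.022 in Spo11KO (adjusted p = 0.739) and −0.33 in Stra8KO (adjusted p = 2.21e-06). The median of all genes moved by −0.337 and −0.317 in these comparisons under that scaling. Ccna2, the mitotic cyclin, fell in both genotypes, by 0.34 in Stra8KO and by 0.30 in Spo11KO, with no detected difference between the effects (−0.045, adjusted p = 0.723).

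Counts in the gene lists that follow are read against all tested genes. Of these, 21.4% rose and 20.1% fell with NRRA in Stra8KO and 24.7% rose and 25.5% fell in Spo11KO, and the NRRA effect was higher in Stra8KO for 14.6% and lower for 10.1%. With scaling by germ cell markers 10.3% rose and 48.4% fell in Stra8KO, and 10.5% rose and 51.3% fell in Spo11KO. Some genes stand in more than one list.

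Transcriptional partners and regulators of meiotic entry had 9 tested genes, beside the 4 described. Under NRRA, 6 rose and 0 fell in Stra8KO (median log2 change 0.83), and 6 rose and 2 fell in Spo11KO (median 0.13, and −0.21 when scaled by germ cell markers). Kit, the receptor that marks differentiating spermatogonia, rose by 5.09 and 5.96, and Rec8, a meiotic cohesin, by 3.76 and 2.46. Rec8 thus rose more in Stra8KO (difference 1.30 ± 0.153, edgeR adjusted p = 7.56e-09) and Kit less (−0.87 ± 0.132, adjusted p = 1.61e-06). Rec8 started lower in Stra8KO than in Spo11KO, at 4.25 against 12.6 CPM in vehicle. After NRRA it was still slightly lower in Stra8KO, at 58.2 against 69.2 CPM. Scaled by the germ cell markers, Rec8 was instead higher in Stra8KO after NRRA, by a log2 difference of 0.72 (edgeR adjusted p = 4.82e-13). That scaling moved the median of all genes by 0.967 in this comparison. Nanos2 and Nanos3, RNA-binding proteins of undifferentiated spermatogonia, had log2 changes of −4.18 and −2.45 in Spo11KO, where both fell, whereas in Stra8KO Nanos2 changed by 0.013 (adjusted p = 0.98) and Nanos3 rose by 0.66 (adjusted p = 1.16e-05). The differences of these effects were 4.19 ± 0.419 and 3.11 ± 0.196 (adjusted p = 1.3e-10 and 2.31e-16). In vehicle, Nanos2 and Nanos3 were lower in Stra8KO than in Spo11KO, by log2 differences of −2.16 and −0.39. After NRRA both were higher in Stra8KO, by 2.03 and 2.72. Scaled by the germ cell markers, Nanos3 was higher in Stra8KO in vehicle too, by 0.56 (edgeR adjusted p = 8.36e-05). In vehicle that scaling moved the median of all genes by 0.946. Dazl, a germ cell RNA-binding protein, did not pass in either genotype (0.087 and −0.029), and Ddx4, a germ cell RNA helicase, rose by 0.13 and 0.16. With DESeq2 size factors the rise of Ddx4 in Stra8KO did not pass (0.10, adjusted p = 0.0931), and scaled by the germ cell markers, of which it is a member, its changes were −0.19 and −0.17.

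Writers, readers and erasers of N6-methyladenosine, the mark read by YTHDC2, had 15 tested genes. With NRRA 2 rose and 4 fell in Stra8KO (median −0.077), and 4 rose and 5 fell in Spo11KO (median −0.087). Rbm15b, an adaptor of the writer complex, fell by 0.21 and by 0.42 in that order. Mettl14, a core writer subunit, rose by 0.26 in Spo11KO and changed by −0.071 in Stra8KO (adjusted p = 0.486), and these effects differed by −0.33 ± 0.0981 (adjusted p = 0.0105). Scaled by germ cell markers, 0 of the 15 rose in either genotype, at a scaling that moved the median of all genes by −0.317 and −0.337.

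Cytoplasmic mRNA decay factors, the machinery to which XRN1 belongs, had 23 tested genes. In Stra8KO 5 rose and 3 fell with NRRA (median 0.0053), and in Spo11KO 2 rose and 11 fell (median −0.12). With libraries scaled to total counts the split in Spo11KO was 7 and 4. Cnot2, a subunit of the CCR4-NOT deadenylase, rose by 0.58 ± 0.0535 in Stra8KO and changed by −0.029 in Spo11KO (adjusted p = 0.672), and Dcp1a, a decapping factor, fell by 0.33 in Spo11KO and changed by 0.12 in Stra8KO (adjusted p = 0.0958). Their effects differed by 0.61 and 0.45 (adjusted p = 1.2e-08 and 1.79e-05).

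Mitotic cell cycle transcripts, of which Ccna2 is a member, had 13 tested genes. With NRRA 8 fell and 0 rose in Stra8KO (median −0.23), and 11 fell and 1 rose in Spo11KO (median −0.30). Mki67, the proliferation marker, fell by 0.47 in Stra8KO and by 0.18 in Spo11KO, and Plk1, a mitotic kinase, by 0.31 and by 0.59. With total counts as the scale, the change of Mki67 in Spo11KO did not pass (−0.088, adjusted p = 0.0534).

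Meiotic prophase genes had 27 tested members of 28 listed. With NRRA 11 rose and 0 fell in Stra8KO (median 0.29), and 21 rose and 0 fell in Spo11KO (median 0.57), and with scaling by germ cell markers the splits became 8 and 7, and 13 and 4, beside the shares of all genes under that scaling given above. The NRRA effect was lower in Stra8KO for 9 of the 27 and higher for 1, Rec8. Sycp3, a lateral element of the synaptonemal complex, rose by 1.01 in Stra8KO and by 2.16 in Spo11KO (difference −1.15 ± 0.155, adjusted p = 1.33e-07). Mei1, required for meiotic DNA breaks, rose by 1.02 and by 1.92 (difference −0.91 ± 0.246, adjusted p = 0.00468). Rbm46, with its difference of −0.91, lay between Sycp3 and Mei1, the most negative differences among the called prophase genes. The median difference over the 27 was −0.305. Prdm9, the methyltransferase that places meiotic breaks, changed by −0.13 in Stra8KO (adjusted p = 0.659) and rose by 0.77 in Spo11KO.

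Germ cell RNA-binding proteins and translation regulators had 21 tested genes, and 7 rose and 3 fell in Stra8KO (median 0.062) against 10 and 6 in Spo11KO (median −0.029). The list again holds Nanos2, Nanos3 and Dazl of the entry regulators, Tex15 of the prophase genes and the markers Ddx4 and Dnd1, and its largest differences of effects were the 4.19 of Nanos2 and the 3.11 of Nanos3. Ago4, an Argonaute protein of meiotic germ cells, rose by 1.90 ± 0.131 in Spo11KO and changed by 0.15 in Stra8KO (adjusted p = 0.433), a difference of −1.75 ± 0.201 (adjusted p = 4.43e-09). Ybx2, a germ cell mRNA-binding protein, had effects that differed by −1.14 ± 0.199 (adjusted p = 1.86e-05). Larp1b rose in both genotypes, by 1.20 and by 0.87. The difference of the NRRA effects was called in 5 genes as higher and in 4 as lower in Stra8KO, and the other 12 did not pass.

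Between genotypes, most genes of these lists were lower in Stra8KO, as were the germ cell markers. In vehicle 8 of 9 entry regulators, 24 of 27 prophase genes, 13 of 13 mitotic transcripts, 21 of 23 decay factors (1 higher), 10 of 15 N6-methyladenosine factors (1 higher) and 19 of 21 RNA-binding proteins (1 higher) were lower, with 0 higher where no count is given. After NRRA the lower counts were 7 (2 higher), 27, 13, 15 (2 higher), 10 (2 higher) and 16 (2 higher). The shares of all tested genes were 30.7% lower and 31.5% higher in Stra8KO in vehicle, and 29.1% lower and 35.2% higher after NRRA. The median log2 differences after NRRA were −0.62, −1.12, −0.87, −0.33, −0.27 and −1.01 in that order, beside −0.92 for the germ cell markers. Scaled by germ cell markers, the medians became 0.35, −0.15, 0.10, 0.64, 0.70 and −0.044, with a change of sign for the entry, mitotic, decay and N6-methyladenosine lists. This scaling moved the median of all genes by 0.967, with 79.5% of all tested genes then higher in Stra8KO and 3.12% lower, so the change of sign follows from the scaling and is not particular to the lists. Of the prophase genes 12 were lower and 2 higher on that scale. Of 5 tested Sertoli cell markers 3 were higher in Stra8KO in vehicle and 3 after NRRA, and of 7 tested macrophage markers 3 (1 lower) and 6, at the low levels given above. Under NRRA, 1 Sertoli cell marker rose and 1 fell in Stra8KO, and 0 rose and 1 fell in Spo11KO, while 1 macrophage marker rose and 1 fell in Stra8KO, and 2 rose and 3 fell in Spo11KO.

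**Figure D4:**
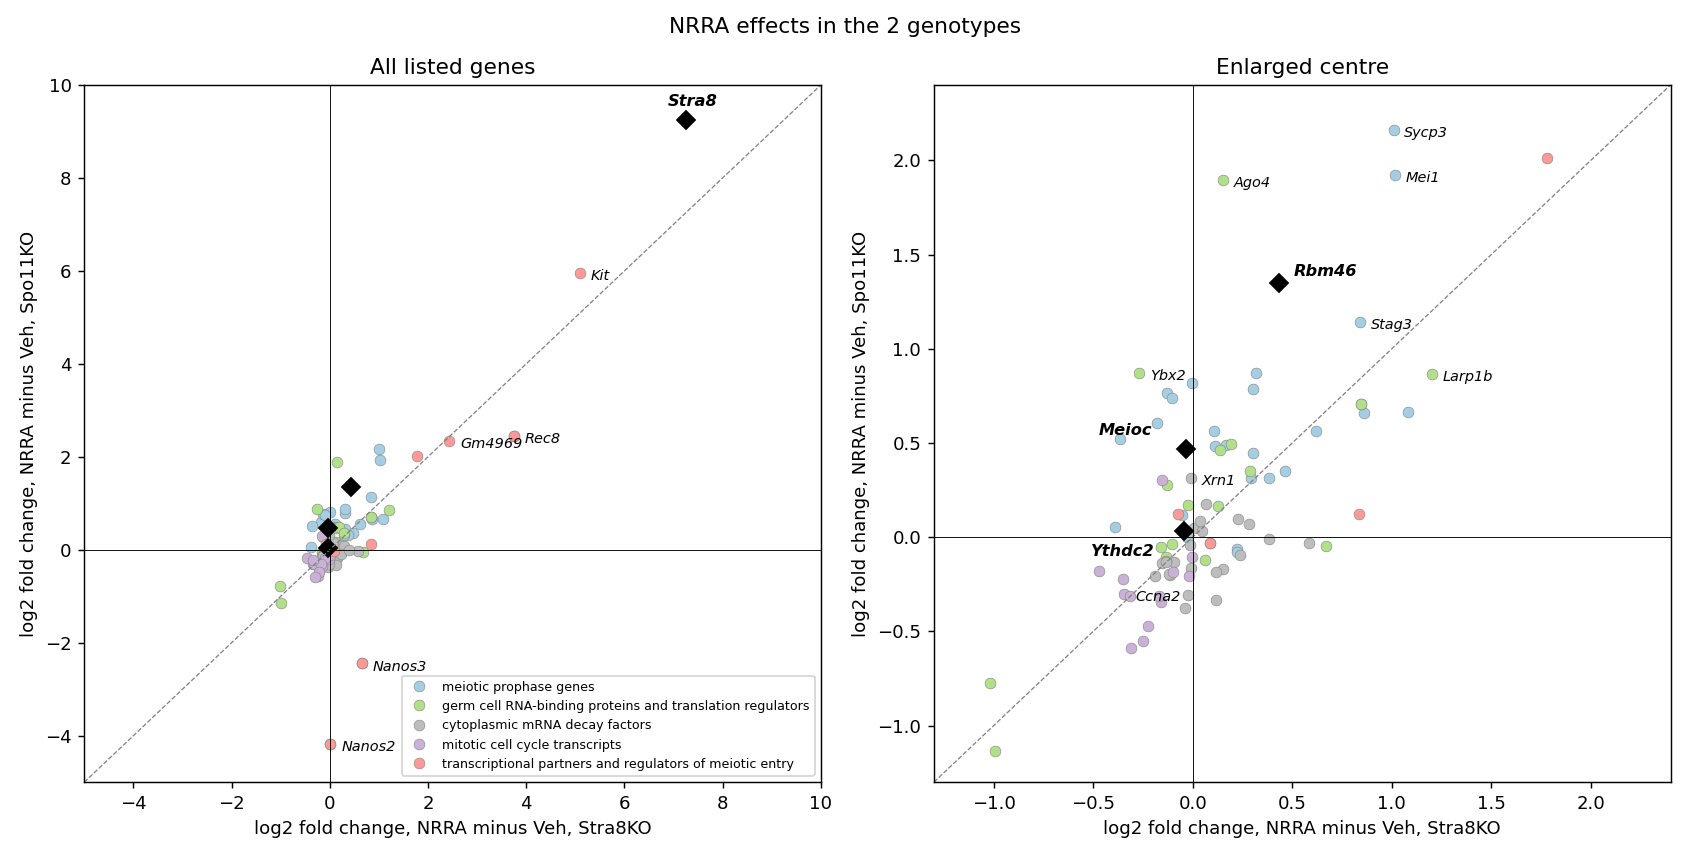
Log2 fold change of NRRA against Veh in Stra8KO (horizontal) and in Spo11KO (vertical) for the 4 genes (black diamonds) and the genes of 5 lists (circles), with the line of equal effects dashed and the centre enlarged on the right. Meioc (−0.035 and 0.47) and Rbm46 (0.43 and 1.35) lay above the line, Ythdc2 lay near 0 on both axes, and Nanos2 and Nanos3 lay far below the line. The horizontal position of Stra8 rests on 2 counts in vehicle.

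The genes whose log2 CPM followed each of the 4 most closely over the 8 libraries were listed among 12827 candidates, as a description in which the 4 groups set most of the spread. For Stra8 the nearest was Col22a1, a collagen (Pearson r = 0.998), which read 4.87, 16.8, 8.20 and 46.2 CPM in Stra8KO Veh, Stra8KO NRRA, Spo11KO Veh and Spo11KO NRRA, followed by Plekha7, Scube1, Setmar and Fras1 (r of 0.990 to 0.993). For Meioc it was Spdl1, a mitotic spindle factor (r = 0.999; 14.9, 14.5, 26.4 and 34.8 CPM), followed by Pls1, Myo9a, Trappc11 and Pdhb (r of at least 0.998). For Ythdc2 the nearest genes were less close, with Triobp at r = 0.974 and Tlk1, Rpgr, Sypl and Thoc1 at 0.955 to 0.971. For Rbm46 it was Fsip1 (r = 0.998; 1.96, 2.69, 3.02 and 6.67 CPM), followed by Dop1a, Tmx4, Per1 and Esyt3 (r of 0.995 to 0.998). Among the 4 genes, Stra8 and Rbm46 were the most alike (r = 0.916) and Stra8 and Ythdc2 the least (r = 0.418).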

How the data were processed

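RNA-seq was deposited for 8 SSC cultures as 1 table that holds raw counts for each Ensembl gene and library, and 0 columns of per-sample values were left unused. Per the labels, the counts were made by the authors with STAR 2.6.1c and featureCounts 1.6.4 on mm10, as the submitters' processing notes list. The annotation, the strand setting and the treatment of reads matching several places are not given in the sources used here. The protocol label names both a TruSeq and a NuGEN kit, and the study's methods describe stranded poly(A) libraries.

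The counts were fitted with edgeR 4.0.16 (R 4.3.3) on the 20588 of 55421 genes that passed filterByExpr, which hold 99.88% of the counts. After TMM scaling, 1 group-means model with robust quasi-likelihood dispersions was fitted to all 8 libraries. The 5 comparisons were tested two-sided with Benjamini-Hochberg adjustment over all tested genes, and genes were called at an adjusted p under 0.05. The SE was taken from the size of the log2 fold change over the root of its F statistic. The script was tested on simulated data. Ratios of Stra8 counts have exact 95% intervals conditional on their sum. Exon lengths and loci came from GENCODE M21 (55154 of 55421 identifiers matched), and none of the 4 genes overlaps another annotated gene.

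The 4 genes and all gene lists were chosen with earlier results of these data known. The text names the 4 genes, 7 further fixed genes (Gm4969, Xrn1, Ccna2, Rec8, Dazl, Ddx4, Spo11), up to 4 called genes of each list with the largest change in a comparison, and the 5 genes nearest to each of the 4 by Pearson correlation of log2 CPM (prior count 2, average log2 CPM of at least 1, no clone names). Replicates of a group had a median chi-square per gene of 0.741 to 0.974, against 0.455 for sampling noise, and were counted separately. Alternatives were DESeq2 size factors, total counts, germ cell marker scaling, no filter, an average of at least 10 counts, DESeq2 1.42.0, edgeR's legacy method, a fit to the 4 libraries compared, a replicate block and leaving out each library.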

Additional observations from a re-analysis of the deposited data

Results flagged for a closer look

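The NRRA effect differed between the 2 genotypes by the interaction test for Meioc, with a log2 difference of −0.50 (edgeR adjusted p = 0.00562). Relative to the Veh libraries of the same genotype, the NRRA libraries of Meioc overlapped with Veh in Stra8KO and were both higher in Spo11KO. The same test gave a log2 difference of −0.91 for Rbm46 (adjusted p = 2.31e-09), for which both NRRA libraries were higher than both Veh libraries in each genotype.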

How the results depend on the processing

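Of 336 recomputed values of the 4 genes, 316 kept their direction and their side of the threshold. With germ cell marker scaling, the change under NRRA in Stra8KO was −0.35 for Meioc and −0.36 for Ythdc2, both now called, and 0.12 for Rbm46, no longer called. In Spo11KO it was 0.13 for Meioc, no longer called, and −0.30 for Ythdc2, reversed. Between genotypes in vehicle it was −0.085 for Meioc, no longer called, 0.78 for Ythdc2 and 0.28 for Rbm46, both reversed, and after NRRA 0.73 for Ythdc2, reversed. The shift of the median of all genes under this scaling is part of each. In vehicle, Ythdc2 was called at −0.28 with total counts and at −0.17 with only the libraries of the comparison; the cause was not tested. Leaving out 1 library at a time gave ranges of −0.11 to 0.043 for Meioc under NRRA in Stra8KO, −0.074 to 0.11 for Ythdc2 under NRRA in Spo11KO (with −0.039 without Spo11KO Veh replicate 1), −0.24 to −0.086 for Ythdc2 between genotypes in vehicle and −0.32 to −0.15 after NRRA. For the difference of the NRRA effects the ranges were −2.84 to 1.31 for Stra8, −0.58 to −0.42 for Meioc and −0.16 to 0.020 for Ythdc2. Counts of called genes stayed within 1.5 times in every alternative. With total counts, 61.8% of the calls under NRRA in Spo11KO were rises, against 49.2%, 39.5% of those between genotypes after NRRA were higher in Stra8KO, against 54.7%, and 38.7% of the differences of effects, against 59.2%. With germ cell marker scaling, rises were 17.6% and 16.9% of the NRRA calls, and 97.2% and 96.2% of the genotype calls were higher in Stra8KO. Same-numbered replicates did not deviate together (correlations of −0.0271 to 0.0558), so the numbers were not used to pair samples. This check cannot exclude that same-numbered libraries shared a culture. A replicate block changed no call of the 4 genes (Rbm46 difference of effects −0.91, Meioc −0.50). With 2 libraries per group, levels near 2 counts, such as Stra8 in Stra8KO Veh, are not resolved.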
